A study of Mus musculus with 12 samples.

Results

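Matrix metalloproteinases and their inhibitors were followed in murine bone marrow-derived macrophages (BMDMs) that had been embedded in collagen gels or kept on tissue culture (TC) plates. The set held 10 genes, chosen by symbol out of the 34327 genes of the expression table. It comprised 7 metalloproteinases (Mmp8, Mmp9, Mmp12, Mmp13, Mmp14, Mmp19 and Mmp27) and 3 tissue inhibitors of metalloproteinases (Timp1, Timp2 and Timp3), and each of them was found in 1 row. All cells were wild-type, from marrow of C57BL/6J mice (strain label C57BL/6), and they had been differentiated in medium conditioned by L929 cells, a fibroblast line that secretes the macrophage growth factor CSF1. They were then kept for 24 h in floating gels of rat tail collagen I at 2 mg/ml (low collagen) or 7 mg/ml (high collagen), or on TC plates, without cytokine (untreated) or with recombinant IL-4 at 20 ng/ml. Each condition of these 6 was represented by 2 libraries of polyadenylated RNA, 12 in all, of which 8 came from gels. The labels do not say whether the 2 libraries of a condition came from separate mice or cultures, so the p-values below measure the spread between these libraries, which may be technical.

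Matrix metalloproteinases are zinc-dependent endopeptidases that are made as inactive proenzymes and, once activated, cut proteins of the extracellular matrix. The proteins of Mmp8 and Mmp13 are secreted collagenases and that of Mmp14 is a collagenase anchored in the cell membrane, and all of these can cleave the triple helix of fibrillar collagens such as the collagen I from which the gels were cast. Mmp12 encodes macrophage elastase, Mmp9 a gelatinase that cuts denatured collagen, and Mmp19 and Mmp27 less studied members of the family. The inhibitors bind the active site of the enzymes. TIMP2 also takes part in the activation of pro-MMP2 by MMP14, and TIMP3 is held in the matrix and also inhibits the sheddase ADAM17. IL-4 is the cytokine that drives the alternative activation of macrophages, a state associated with tissue repair. Expression is given as TPM, the share of a library's transcripts scaled to a common total, which is corrected for transcript length and can therefore be compared between genes.

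Of the members, 4 lie in a cluster of 10 Mmp genes on mouse chromosome 9 (chr9:7272514-7699585, GRCm38). Mmp13 and Mmp12 are neighbours at one end, on the plus strand and 61049 bases apart, and Mmp8 and Mmp27 are neighbours further along, on the plus strand and 2910 bases apart. Within it, Mmp13 (ENSMUSG00000050578) spans chr9:7272514-7283331, Mmp12 (ENSMUSG00000049723) chr9:7344381-7369499, Mmp8 (ENSMUSG00000005800) chr9:7558456-7568485 and Mmp27 (ENSMUSG00000070323) chr9:7571396-7581885. The other members lie elsewhere, Mmp9 (ENSMUSG00000017737) at chr2:164940780-164955850, Mmp14 (ENSMUSG00000000957) at chr14:54431612-54445364 and Mmp19 (ENSMUSG00000025355) at chr10:128790910-128800824. Timp1 (ENSMUSG00000001131) lies at chrX:20870166-20874735, Timp2 (ENSMUSG00000017466) at chr11:118301069-118355740 and Timp3 (ENSMUSG00000020044) at chr10:86300372-86349506. The 150 bases before the RefSeq transcription start of the 4 clustered members are printed because these pairs of neighbours differed in their expression across the conditions, as described below. The windows are chr9:7272364-7272513 for Mmp13, chr9:7347224-7347373 for the second of the starts listed for Mmp12, chr9:7558279-7558428 for Mmp8 and chr9:7571246-7571395 for Mmp27, all GRCm38.p6 and plus strand. Those of Mmp13, Mmp8 and Mmp27 lie outside the GENCODE spans of the Mmp genes of the cluster, and that of Mmp12 lies within the span of Mmp12. Exons and genes of other families were not checked. Capitals mark the letters TGACTCA or TGAGTCA, the recognition sequence of the AP-1 transcription factors on either strand.
Mmp13: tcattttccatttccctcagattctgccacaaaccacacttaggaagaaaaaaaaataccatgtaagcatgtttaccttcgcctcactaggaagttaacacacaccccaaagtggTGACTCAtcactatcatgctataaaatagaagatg
Mmp12: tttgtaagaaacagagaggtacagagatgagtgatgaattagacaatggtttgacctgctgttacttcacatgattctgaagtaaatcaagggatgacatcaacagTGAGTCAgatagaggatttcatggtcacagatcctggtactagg
Mmp8: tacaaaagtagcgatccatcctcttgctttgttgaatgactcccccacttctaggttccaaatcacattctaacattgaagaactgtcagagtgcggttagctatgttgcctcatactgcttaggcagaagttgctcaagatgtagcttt
Mmp27: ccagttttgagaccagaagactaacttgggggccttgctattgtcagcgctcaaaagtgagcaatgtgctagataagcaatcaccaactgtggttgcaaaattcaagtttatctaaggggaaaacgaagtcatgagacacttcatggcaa
Within 250 bases before their starts, Mmp13 held TGACTCA at 35 to 29 bases upstream and Mmp12 held TGAGTCA at 44 to 38 bases upstream of its second start. The 250 bases before the first start of Mmp12, which are not printed, held neither. Of the 10 members, 8 had such windows (those of Mmp9 and Mmp19 were not analysed here), and no other window held these letters. Of all 32851 RefSeq promoter windows of that length, 4.46% held them. The letters TTCNNNNGAA, which read the same on both strands and are bound by STAT6, the factor activated by IL-4, stood in 5.85% of all windows and in no window of a member. The ETS core letters GGAAGT or GGATGT, read on either strand, stood in 27.3% of all windows and in those of Mmp8, Mmp12, Mmp13 and Timp1. These matches describe letters and were not related to binding in these cells.

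The TPM of a library summed to between 999658 and 999723, and between 11543 and 11910 genes reached a TPM of 1. The number of reads behind a library cannot be read from TPM, so the depth is unknown here. The 2 libraries of a condition correlated at 0.980 to 0.985 across genes. All 8 macrophage markers were detected, at a summed TPM of 17542 to 53957 per library. Of 10 neutrophil markers, 3 reached a mean TPM of 1, Ly6g was listed at 0 in all 12 libraries, and Mpo did not exceed 0.0790 TPM. The summed TPM of the 10, most of it from S100a8 and S100a9, was 16.0 to 36.3 in gels and 6.32 to 11.4 on TC plates. Of 10 fibroblast markers, 2 reached a mean TPM of 1. Differences were tested with limma on log2(TPM + 1) over the genes whose mean TPM reached 1, and a gene was called at a Benjamini-Hochberg adjusted p under 0.2. Because of the added 1, the fold changes of low genes come out too small on this scale.

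Among the members, Timp2 and Mmp12 were the most abundant transcripts and Mmp9, Timp1 and Timp3 the least. Timp2 ranged from 167 to 469 TPM and Mmp12 from 61.6 to 1734 TPM. Mmp8, Mmp13, Mmp14, Mmp19 and Mmp27 lay between 1.04 and 44.9 TPM. Timp1 lay between 0.423 and 3.61 TPM. Mmp9 did not exceed 2.05 TPM and Timp3 did not exceed 0.579 TPM in any library. Mmp9 and Timp3 had a mean TPM under 1 and were left out of the tests, so that 8 of the 10 members were tested in each comparison.

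**Figure D1:**
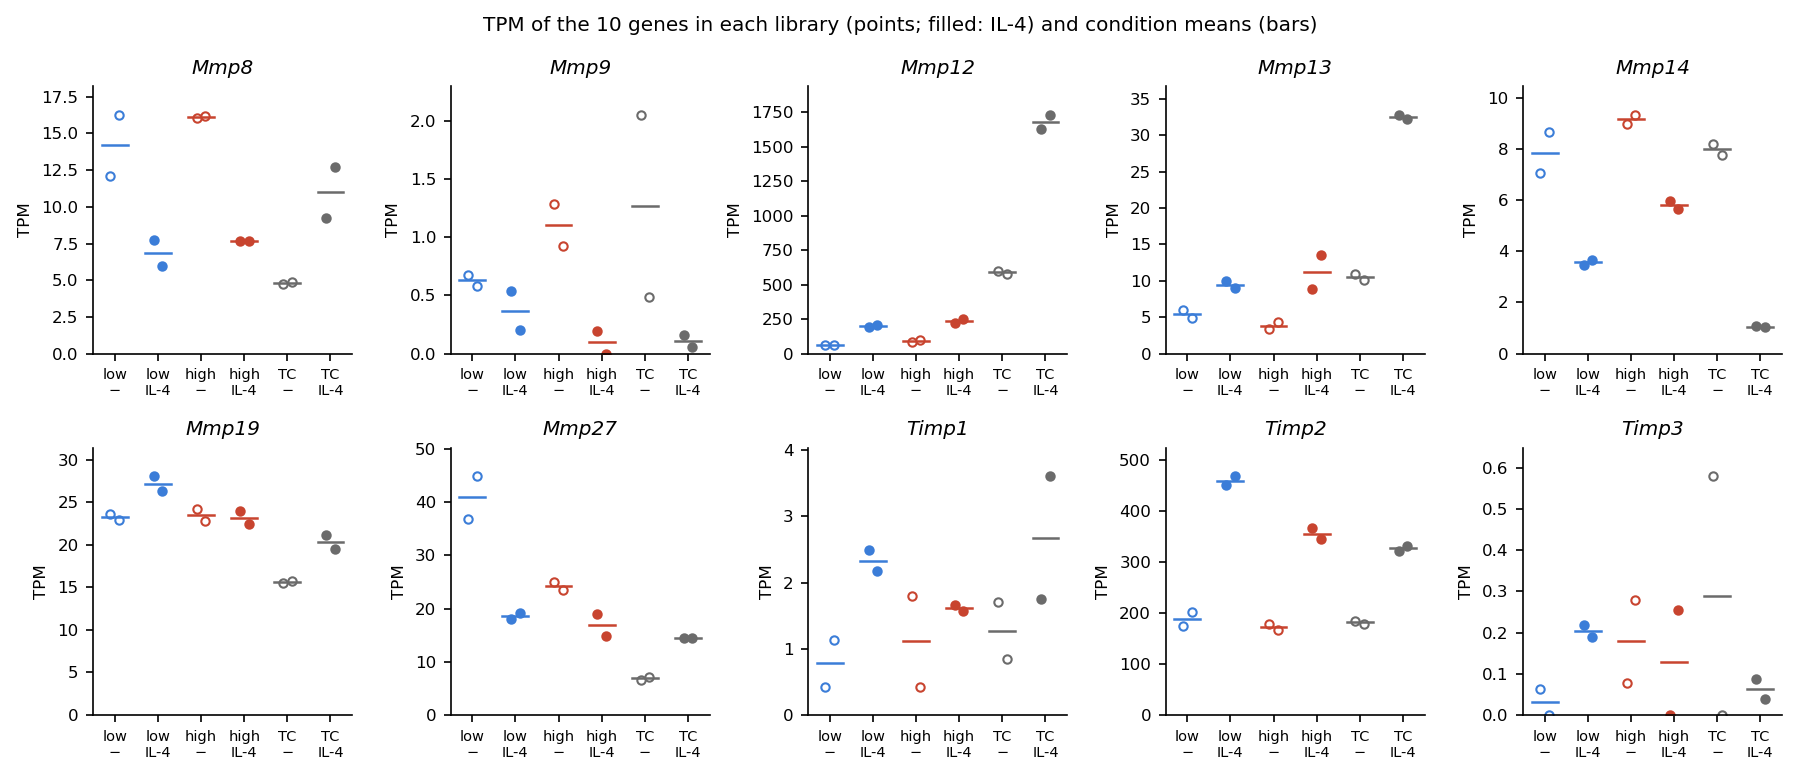
TPM (vertical axes, linear, from 0) of the 10 genes in the 12 libraries. Points are libraries (open, untreated; filled, IL-4), bars are condition means, and the horizontal axis gives the conditions (low, high: collagen gels of 2 and 7 mg/ml; TC: plates). Mmp12 was highest on TC plates, up to 1734 TPM, and Mmp8 and Mmp27 went down with IL-4 in gels and up with IL-4 on TC plates.

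The first comparison asked whether the members differed between gels of high and low collagen. The paper reports that the denser gels were also stiffer and differed in pore size. Collagen amount, stiffness and pore size cannot be told apart here. With IL-4, 4 of the 8 tested members differed between high and low collagen, Mmp14 and Mmp12 higher and Timp2 and Mmp19 lower in high collagen, while 21.1% of all 11852 tested genes were called (14.1% higher, 6.99% lower). Without IL-4, 2 of the 8 were called, Mmp12 higher and Mmp27 lower in high collagen, beside 8.02% of all genes (3.23% higher, 4.79% lower). Mmp12 was called higher in high collagen in both. In bulk RNA, fewer cells of a type and less RNA per cell cannot be told apart. The background itself depended on single libraries, with 2500 calls that became 715 to 2678 with IL-4 and 951 that became 138 to 721 without IL-4 when a gel library was left out. The summed macrophage markers, mostly Lyz2, were higher in high collagen. Untreated they were at 53957 and 53823 against 43337 and 46133 TPM, and with IL-4 at 37706 and 35740 against 30719 and 31917 TPM. Of their 9 tested rows (2 for Itgam), 6 were called higher and 1 lower with IL-4, and 4 higher and 1 lower without. Cd68 went the other way, at 1418 and 1463 against 1771 and 1826 TPM untreated and at 2165 and 2214 against 2615 and 2622 TPM with IL-4. The part of these markers in the differences of the members was not tested. Of the 3 collagenase genes, Mmp14 was called higher with IL-4 and none was called without it. The median log2 fold change of all tested genes was 0.06 with IL-4 and -0.02 without. With IL-4, the share of higher genes among the calls was 66.9%, and 47.2% after the libraries were rescaled by median ratios.

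**Figure D2:**
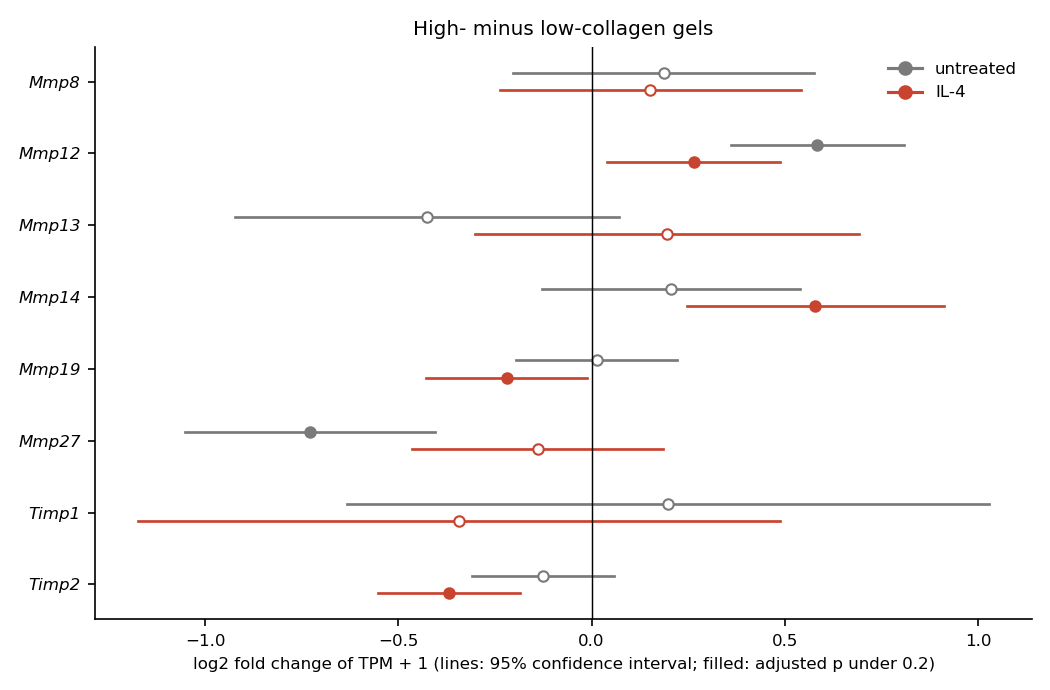
Log2 fold change of TPM + 1 between high- and low-collagen gels (horizontal axis) for the 8 tested members, untreated (grey) and with IL-4 (red). Points are limma estimates from 2 libraries a condition, lines their 95% confidence intervals, and filled points passed the adjusted p of 0.2. Mmp12 lay above 0 in both, while Mmp27 lay below 0 without IL-4 and Mmp14 above 0 with IL-4.

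Mmp14, the membrane-bound collagenase, was measured with IL-4 at 5.97 and 5.67 TPM in high collagen and at 3.45 and 3.68 TPM in low collagen. The libraries did not overlap, and the log2 fold change was 0.58 ± 0.14 (SE, limma adjusted p = 0.0645). Without IL-4, Mmp14 stood at 9.0 and 9.35 TPM in high collagen and at 7.05 and 8.67 TPM in low collagen, a log2 fold change of 0.21 ± 0.14 that was not called (limma adjusted p = 0.538). The call with IL-4 missed the threshold when high-collagen replicate 1, high-collagen replicate 2 or low-collagen replicate 2 with IL-4 was left out, at limma adjusted p = 0.208, 0.213 and 0.209, with log2 fold changes between 0.54 and 0.61 over all libraries left out. Mmp8, also known as neutrophil collagenase, overlapped between the densities in both treatments. Its log2 fold change was 0.15 with IL-4 (95% confidence interval -0.24 to 0.54) and 0.19 without (-0.20 to 0.58). Mmp13 had log2 fold changes of 0.20 with IL-4 (95% confidence interval -0.30 to 0.69) and -0.42 without (-0.92 to 0.07). Its untreated libraries were at 3.31 and 4.36 TPM in high collagen and 6.02 and 4.93 TPM in low collagen, which did not overlap but did not pass the test (limma adjusted p = 0.392).

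Mmp12, macrophage elastase, was at 86.2 and 101 TPM in untreated high-collagen gels and at 61.6 and 62.4 TPM in untreated low-collagen gels. Its log2 fold change was 0.58 ± 0.10 (SE, limma adjusted p = 0.0585), and without untreated high-collagen replicate 2 it was 0.47 with an adjusted p of 0.208. With IL-4, the libraries were at 225 and 251 TPM in high collagen and 189 and 207 TPM in low collagen. They did not overlap, and the log2 fold change was 0.26 ± 0.10 (SE, limma adjusted p = 0.159). This smaller difference missed the threshold after rescaling (0.19, adjusted p = 0.342) and when any of the 4 IL-4 gel libraries was left out (adjusted p = 0.206 to 0.506).

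Mmp27 fell in high collagen without IL-4. It was at 24.9 and 23.5 TPM in high collagen and at 36.9 and 44.9 TPM in low collagen, with no overlap and a log2 fold change of -0.73 ± 0.14 (SE, limma adjusted p = 0.0709). Without untreated high-collagen replicate 1, high-collagen replicate 2 or low-collagen replicate 2, the limma adjusted p was 0.212, 0.244 and 0.227. With IL-4 the libraries of both densities overlapped and the log2 fold change was -0.14 (95% confidence interval -0.46 to 0.18). The summed TPM of the 10 neutrophil markers, most of it from S100a8 and S100a9, was also lower in untreated high collagen. It was 25.9 and 36.3 in untreated low-collagen libraries and 20.6 and 17.1 in untreated high-collagen libraries, with Ly6g listed at 0. Ngp overlapped, at 0.659 and 1.24 TPM in untreated high collagen and 0.135 and 1.00 TPM in untreated low collagen. The part of these markers in the result was not tested.

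Mmp19 and the inhibitor Timp2 were lower in high collagen with IL-4. Timp2 was at 367 and 346 TPM in high collagen and at 451 and 469 TPM in low collagen, a log2 fold change of -0.37 ± 0.08 (SE, limma adjusted p = 0.0433). Without high-collagen replicate 2 or low-collagen replicate 2 with IL-4, its adjusted p was 0.221 and 0.212 and its log2 fold change -0.33 and -0.34. Mmp19 was at 24.0 and 22.4 TPM in high collagen and at 28.1 and 26.3 TPM in low collagen. The log2 fold change of -0.22 ± 0.09 (SE, limma adjusted p = 0.198) stood just inside the threshold, and leaving out any one of the 8 gel libraries took it past the threshold (adjusted p = 0.208 to 0.519). Other genes' transcripts share 26.7% of the 31-base words of Mmp19, so its reads could be split. Without IL-4 neither gene was called, with log2 fold changes of -0.13 for Timp2 (95% confidence interval -0.31 to 0.06) and 0.01 for Mmp19 (-0.20 to 0.22). Timp1 was at 0.423 to 2.49 TPM in gels and was not called between densities, with an interval from -1.17 to 0.49 with IL-4.

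The second comparison asked what IL-4 did to the members in gels. In low-collagen gels all 8 tested members were called, 5 higher (Mmp12, Mmp13, Mmp19, Timp1 and Timp2) and 3 lower (Mmp8, Mmp14 and Mmp27), beside 53.6% of all tested genes (13.2% higher, 40.4% lower). In high-collagen gels 6 were called, Mmp12, Mmp13 and Timp2 higher and Mmp8, Mmp14 and Mmp27 lower, beside 34.3% of all genes (11.5% higher, 22.8% lower). Thus 1 collagenase gene rose while 2 fell at either density. The median log2 fold change over all genes was -0.19 in low and -0.10 in high collagen. The share of higher genes among all calls was 24.7% and 33.6%, and 53.9% and 55.8% after rescaling, under which these 8 and 6 calls and their directions were as stated. The summed TPM of the 8 osteoclast markers, most of it from Atp6v0d2, rose with IL-4 from means of 105 to 493 in low collagen, 83.9 to 385 in high collagen and 39.4 to 361 on TC plates, with Calcr listed at 0 in all 12 libraries. Of these markers 4 were tested in gels and 5 on TC plates, and in each setting 3 were called higher and 1 lower. Nfatc1 went down, from 24.9 and 25.2 to 19.2 and 17.96 TPM in low collagen. In high collagen it went from 26.1 and 24.9 to 21.2 and 21.6 TPM, and on TC plates from 28.5 and 26.7 to 25.3 and 22.8 TPM. The summed TPM of the 8 macrophage markers, most of it from Lyz2, was lower with IL-4, at 30719 to 37706 in gels against 43337 to 53957 untreated. Its members were not of one direction, and Cd68 went from 1771 and 1826 to 2615 and 2622 TPM in low collagen. The 10 fibroblast markers summed to 2.13 and 3.97 TPM untreated and 6.94 and 9.80 TPM with IL-4 in low collagen, to 2.92 and 1.56 against 5.76 and 7.26 TPM in high collagen, and to means of 1.49 and 2.12 TPM on TC plates. Postn was listed at 0 in the untreated libraries and reached 3.66 to 8.03 TPM in the 4 gel libraries with IL-4, while Col1a1 did not exceed 0.178 TPM and Dcn 0.378 TPM in any library. The part of these markers in the changes of the members was not tested.

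Mmp12 rose the most of the tested members in low collagen, from 61.6 and 62.4 TPM untreated to 189 and 207 TPM with IL-4. This is a log2 fold change of 1.66 ± 0.10 (SE, limma adjusted p = 1.87e-05). In high collagen it rose from 86.2 and 101 TPM to 225 and 251 TPM, by 1.34 ± 0.10 (SE, limma adjusted p = 8.2e-05). The IL-4 libraries lay above all untreated gel libraries at both densities. Mmp13, its neighbour on the chromosome, went from 6.02 and 4.93 TPM to 9.98 and 8.96 TPM in low collagen (0.70 ± 0.21, limma adjusted p = 0.0424). In high collagen it went from 3.31 and 4.36 TPM to 8.89 and 13.5 TPM (1.32 ± 0.21, limma adjusted p = 0.00507). The high-collagen IL-4 libraries differed from each other by more than the other pairs of gel libraries did.

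The collagenases Mmp8 and Mmp14 moved the other way. Mmp8 fell from 12.1 and 16.3 TPM to 7.74 and 5.94 TPM in low collagen, a log2 fold change of -0.95 ± 0.17 (SE, limma adjusted p = 0.00475). In high collagen it fell from 16.1 and 16.2 TPM to 7.64 and 7.67 TPM (-0.99 ± 0.17, limma adjusted p = 0.00632), and all untreated gel libraries lay above all IL-4 gel libraries. Mmp14 fell from 7.05 and 8.67 TPM to 3.45 and 3.68 TPM in low collagen (-0.95 ± 0.14, limma adjusted p = 0.00224). In high collagen the fall was smaller, to 5.97 and 5.67 TPM (-0.58 ± 0.14, limma adjusted p = 0.0315). Mmp27 fell from 36.9 and 44.9 TPM to 17.97 and 19.1 TPM in low collagen (-1.09 ± 0.14, limma adjusted p = 0.000974). In high collagen it fell from 24.9 and 23.5 TPM to 18.9 and 14.8 TPM (-0.51 ± 0.14, limma adjusted p = 0.0465), with an adjusted p of 0.203 without high-collagen IL-4 replicate 2. With IL-4 the 4 gel libraries of Mmp27 thus lay between 14.8 and 19.1 TPM.

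Of the inhibitors, Timp2 rose in both gels. It went from 175 and 201 TPM to 451 and 469 TPM in low collagen (1.29 ± 0.08, limma adjusted p = 2.47e-05) and from 178 and 167 TPM to 367 and 346 TPM in high collagen (1.04 ± 0.08, limma adjusted p = 0.00011). Timp1, a secreted inhibitor that many cells induce on stimulation, was low and noisy. It was at 0.423 and 1.14 TPM untreated and at 2.49 and 2.17 TPM with IL-4 in low collagen (0.93 ± 0.36, limma adjusted p = 0.0851). The call missed the threshold without low-collagen untreated replicate 1 (adjusted p = 0.288), low-collagen IL-4 replicate 1 (0.227) or low-collagen IL-4 replicate 2 (0.206). In high collagen Timp1 was not called, at 1.80 and 0.430 TPM untreated and 1.67 and 1.58 TPM with IL-4 (limma adjusted p = 0.504). It became called without untreated high-collagen replicate 1, at a log2 fold change of 0.87. Mmp19 rose in low collagen by 0.22 ± 0.09 (SE, limma adjusted p = 0.106), and by 0.42 after rescaling. Its call was lost without low-collagen untreated replicate 2 (0.276) or low-collagen IL-4 replicate 1 (0.320). In high collagen Mmp19 had a log2 fold change of -0.02 (95% confidence interval -0.23 to 0.19), whose sign turned under rescaling.

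**Figure D3:**
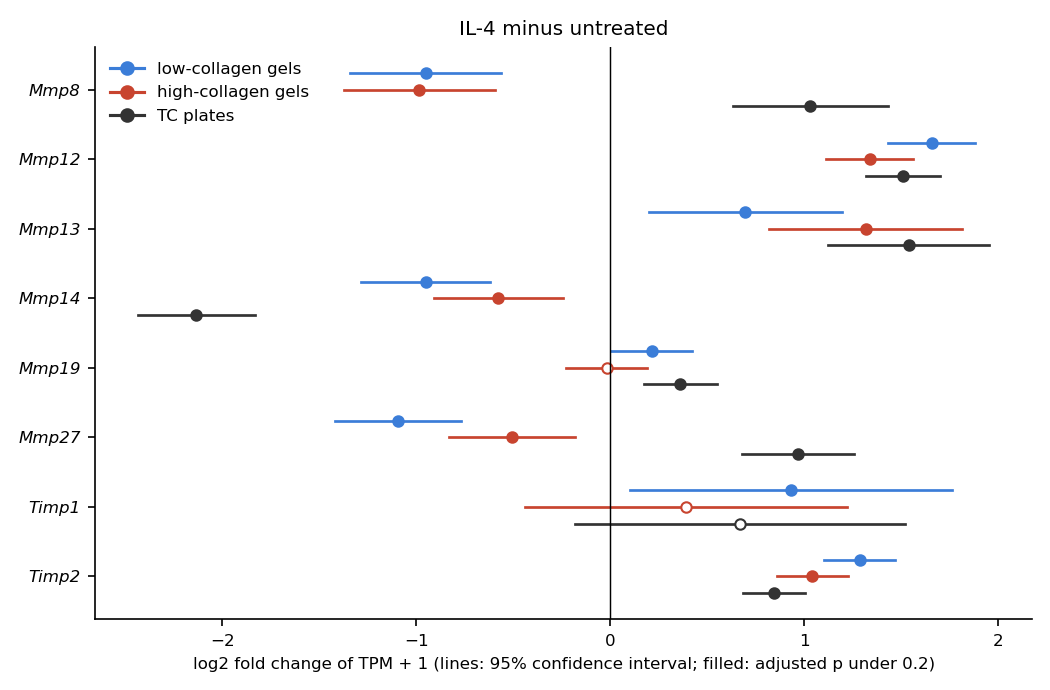
Log2 fold change of TPM + 1 between IL-4 and untreated libraries (horizontal axis) for the 8 tested members in low-collagen gels (blue), high-collagen gels (red) and on TC plates (black). Points are limma estimates from 2 libraries a condition, lines their 95% confidence intervals, and filled points passed the adjusted p of 0.2. Mmp8 and Mmp27 lay below 0 in both gels and above 0 on TC plates.

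Whether the IL-4 response depended on collagen density was tested as an interaction. None of the 8 members was called by limma, where 0.363% of all genes were (0.194% with a larger and 0.169% with a smaller value in high collagen). The share of all genes at an unadjusted p under 0.05 is not given here, so counts at that cut have no background. At that cut there were 2, Mmp27 and Mmp12. This count was 4 after rescaling and with all 12 libraries in the fit, and 1 without untreated high-collagen replicate 2, untreated low-collagen replicate 2, high-collagen IL-4 replicate 1 or either low-collagen IL-4 library. The difference was 0.59 for Mmp27 (95% confidence interval 0.13 to 1.05, limma adjusted p = 0.434) and -0.32 for Mmp12 (-0.64 to -0.0045, adjusted p = 0.500). For Mmp14 the interval ran from -0.10 to 0.84. Of the few interaction calls among all genes, 53.5% were higher, and 37.8% after rescaling.

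On TC plates 7 of the 8 tested members responded to IL-4, 6 higher (Mmp8, Mmp12, Mmp13, Mmp19, Mmp27 and Timp2) and 1 lower (Mmp14), beside 38.8% of the 11865 genes tested over all 12 libraries (14.7% higher, 24.0% lower). The share of higher genes among the calls was 38.0%, and 49.3% after rescaling. Mmp12 rose from 601 and 577 TPM to 1629 and 1734 TPM (1.51 ± 0.09, limma adjusted p = 1.55e-06). Mmp13 rose from 10.98 and 10.1 TPM to 32.8 and 32.3 TPM (1.54 ± 0.19, limma adjusted p = 0.000238). Both neighbours thus rose on TC plates as they did in gels. Mmp14 fell from 8.22 and 7.79 TPM to 1.06 and 1.04 TPM, a log2 fold change of -2.13 ± 0.13 (SE, limma adjusted p = 3.14e-06). Timp2 rose from 184 and 179 TPM to 322 and 332 TPM (0.84 ± 0.07, limma adjusted p = 2.01e-05). Mmp19 rose by 0.36 ± 0.08 (SE, limma adjusted p = 0.0119). Timp1, at 1.70 and 0.849 TPM untreated and 1.75 and 3.61 TPM with IL-4, was not called (limma adjusted p = 0.251). It was called without TC IL-4 replicate 1 (adjusted p = 0.157) or without either untreated high-collagen library (0.189 and 0.183).

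Mmp8 and Mmp27 rose with IL-4 on TC plates, opposite to their change in gels. Mmp8 went from 4.74 and 4.84 TPM to 9.27 and 12.7 TPM (1.03 ± 0.18, limma adjusted p = 0.0023). Mmp27 went from 6.64 and 7.13 TPM to 14.5 and 14.4 TPM (0.97 ± 0.13, limma adjusted p = 0.000449). All IL-4 libraries lay above the untreated ones for both genes. The response in gels, averaged over both densities, was then tested against that on TC plates, and 6 members were called where 27.1% of all genes were (10.8% higher, 16.4% lower in gels). The difference was -2.0 ± 0.22 for Mmp8 (limma adjusted p = 0.000482) and -1.77 ± 0.16 for Mmp27 (limma adjusted p = 0.000157). Both genes are neighbours in the chromosome 9 cluster. The summed TPM of the neutrophil markers was 16.0 to 25.0 in the 4 gel libraries with IL-4 and 17.1 to 36.3 in the 4 without, and 6.32 and 11.4 against 10.8 and 7.26 on TC plates. Its part in the responses of Mmp8, itself a gene of neutrophil granules, and Mmp27 was not tested.

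The same test found a smaller fall of Mmp14 in gels than on TC plates, a difference of 1.37 ± 0.16 (SE, limma adjusted p = 0.000811), and a larger rise of Timp2, a difference of 0.32 ± 0.09 (SE, limma adjusted p = 0.0428). For Mmp12 no difference was called, with a 95% confidence interval of -0.25 to 0.22. Averaged over both densities, Mmp13 (-0.53 ± 0.23, limma adjusted p = 0.173) and Mmp19 (-0.26 ± 0.10, limma adjusted p = 0.142) rose less in gels. The densities were unlike, at 0.70 in low and 1.32 in high collagen for Mmp13 and at 0.22 and -0.02 for Mmp19. On TC plates these values were 1.54 and 0.36. The Mmp13 and Mmp19 differences missed the threshold after rescaling (adjusted p = 0.260 and 0.391). The Mmp13 difference also missed it when a single library was left out, namely either TC library of either treatment, untreated high-collagen replicate 2, high-collagen IL-4 replicate 1, untreated low-collagen replicate 1 or low-collagen IL-4 replicate 2 (adjusted p = 0.232 to 0.366). The Mmp19 difference missed it without untreated TC replicate 1 or 2, TC IL-4 replicate 1, untreated high-collagen replicate 1, high-collagen IL-4 replicate 2 or low-collagen IL-4 replicate 2 (adjusted p = 0.211 to 0.349). Of all calls in this test, 39.7% were higher in gels, and 60.6% after rescaling.

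The third comparison set gels, averaged over both densities, against TC plates. Cells in gels and on plates also differed in dimension, in stiffness of the support, in handling and in contact with collagen. These cannot be told apart here. Without IL-4, 5 of the 8 tested members were called, Mmp8, Mmp19 and Mmp27 higher and Mmp12 and Mmp13 lower in gels, beside 76.4% of all genes (29.7% higher, 46.7% lower). With IL-4, 7 were called, Mmp14, Mmp19, Mmp27 and Timp2 higher and Mmp8, Mmp12 and Mmp13 lower, beside 77.5% of all genes (25.7% higher, 51.8% lower). With so large a background, the counts of members called say little about this set, and the sizes and directions below carry the description. Over all genes the median log2 fold change was -0.15 without and -0.24 with IL-4, and 38.9% and 33.2% of the calls were higher in gels, which became 49.7% and 49.8% after rescaling.

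Mmp12 was lower in gels by a log2 fold change of -2.94 ± 0.07 without IL-4 (limma adjusted p = 4.04e-09) and of -2.95 ± 0.07 with IL-4 (limma adjusted p = 5.01e-09). On the scale of mean TPM, TC plates were 7.57-fold and 7.71-fold higher. Its 6 condition means were ordered from TC with IL-4 over TC untreated, high collagen with IL-4, low collagen with IL-4 and high collagen untreated to low collagen untreated, and no neighbours in that order overlapped. Mmp13 was lower in gels by -1.05 ± 0.16 without IL-4 (limma adjusted p = 0.000257) and by -1.58 ± 0.16 with IL-4 (limma adjusted p = 1.51e-05). Its neighbouring means of high collagen with IL-4 and TC untreated overlapped.

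Mmp8 and Mmp27 were higher in gels without IL-4, by 1.47 ± 0.15 (limma adjusted p = 1.86e-05) and 2.04 ± 0.11 (limma adjusted p = 2.41e-07). With IL-4 the order of Mmp8 turned, at -0.53 ± 0.15 in gels (limma adjusted p = 0.0123), a value that was -0.29 after rescaling and -0.32 without TC IL-4 replicate 2. Mmp27 with IL-4 was higher in gels by 0.27 ± 0.11 (limma adjusted p = 0.0549), and by 0.53 after rescaling. Mmp14 differed with IL-4 by 1.44 ± 0.12 (limma adjusted p = 3.26e-06), gels being 4.47-fold higher in mean TPM. Without IL-4 its difference of 0.07 was not called as deposited (95% confidence interval -0.19 to 0.34), but was 0.22 after rescaling (adjusted p = 0.103). Mmp19 was higher in gels by 0.55 ± 0.07 without IL-4 (limma adjusted p = 9.15e-05) and by 0.29 ± 0.07 with IL-4 (limma adjusted p = 0.00543), and the latter was 0.55 after rescaling. Timp2 differed by -0.01 without IL-4, which turned to 0.15 and was called after rescaling (adjusted p = 0.0599), and by 0.31 ± 0.06 with IL-4 (limma adjusted p = 0.00141), which was 0.58 after rescaling. Timp1 was not called with or without IL-4 (limma adjusted p = 0.496 and 0.514), but passed at 0.183 without IL-4 when untreated high-collagen replicate 1 was left out and at 0.198 with IL-4 when TC IL-4 replicate 1 was. In untreated gels the summed neutrophil markers were higher than on TC plates, at 17.1 to 36.3 against 7.26 and 10.8 TPM, like Mmp8 and Mmp27, and their part in these differences was not tested.

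Mmp9 and Timp3, which were not tested, stayed near the limit of these tables. Mmp9 was at 0.676 and 0.582 TPM in untreated low collagen, at 1.29 and 0.922 TPM in untreated high collagen and at 2.05 and 0.486 TPM on untreated TC plates. With IL-4 it was at 0.538 and 0.202, at 0.190 and 0, and at 0.161 and 0.0590 TPM in the same order. Within each substrate the untreated libraries of Mmp9 lay above those with IL-4. When no filter on low values was set, Mmp9 was called lower with IL-4 in high collagen (-0.94 ± 0.17, limma adjusted p = 0.0270) and on TC plates (-0.94 ± 0.30, adjusted p = 0.0982), and not in low collagen (-0.26 ± 0.17, adjusted p = 0.390). Timp3 was listed at 0 in 3 libraries, and conditions next to each other in the order of its means overlapped. Other genes' transcripts share 21.9% of its 31-base words.

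The collagenase genes were also added up, as the gels consisted of the substrate of their proteins. The summed TPM of Mmp8, Mmp13 and Mmp14 was 27.5 ± 3.32 (SD, n = 2) in untreated low collagen and 29.1 ± 1.09 in untreated high collagen. With IL-4 it was 19.9 ± 1.83 in low and 24.7 ± 3.08 in high collagen. On TC plates it was 23.3 ± 0.850 untreated and 44.6 ± 2.02 with IL-4. The smallest two-sided p of an exact permutation test on 2 and 2 libraries is 0.333, so the sums were not tested. The libraries of both densities overlapped without IL-4, at 25.2 and 29.9 against 28.4 and 29.9 TPM, and did not overlap with IL-4, at 21.2 and 18.6 against 22.5 and 26.9 TPM.

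The sum changed its make-up more than its size in gels. Mmp8 gave 48.1% to 56.6% of collagenase TPM in the 4 untreated gel libraries and 28.6% to 36.6% in the 4 with IL-4. Mmp13 gave 11.7% to 23.9% and 39.5% to 50.3% in the same libraries. On TC plates with IL-4, Mmp13 gave 76.1% and 70.2%, and Mmp14 2.46% and 2.26%. Timp2 made up 98.8% to 99.7% of the summed TPM of the 3 inhibitors in the 12 libraries. The ratio of inhibitor to collagenase TPM, which no rescaling of a library changes, was 6.98 and 6.78 in untreated low collagen and 6.33 and 5.60 in untreated high collagen. With IL-4 it was 21.4 and 25.4 in low and 16.4 and 12.9 in high collagen, whereas TC plates had 7.79 and 7.91 untreated and 7.50 and 7.30 with IL-4. The 4 gel libraries with IL-4 were therefore the only ones of the 12 above 7.91, and those in low collagen lay above those in high collagen. Counted over all 7 metalloproteinases, Mmp12 included, the ratio of metalloproteinase to inhibitor TPM moved less with IL-4 in gels. It went from 0.841 and 0.793 to 0.565 and 0.576 in low collagen and from 0.919 and 1.06 to 0.789 and 0.907 in high collagen. On TC plates it went from 3.48 and 3.47 to 5.28 and 5.40. These are ratios of transcripts and not of active enzyme.

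**Figure D4:**
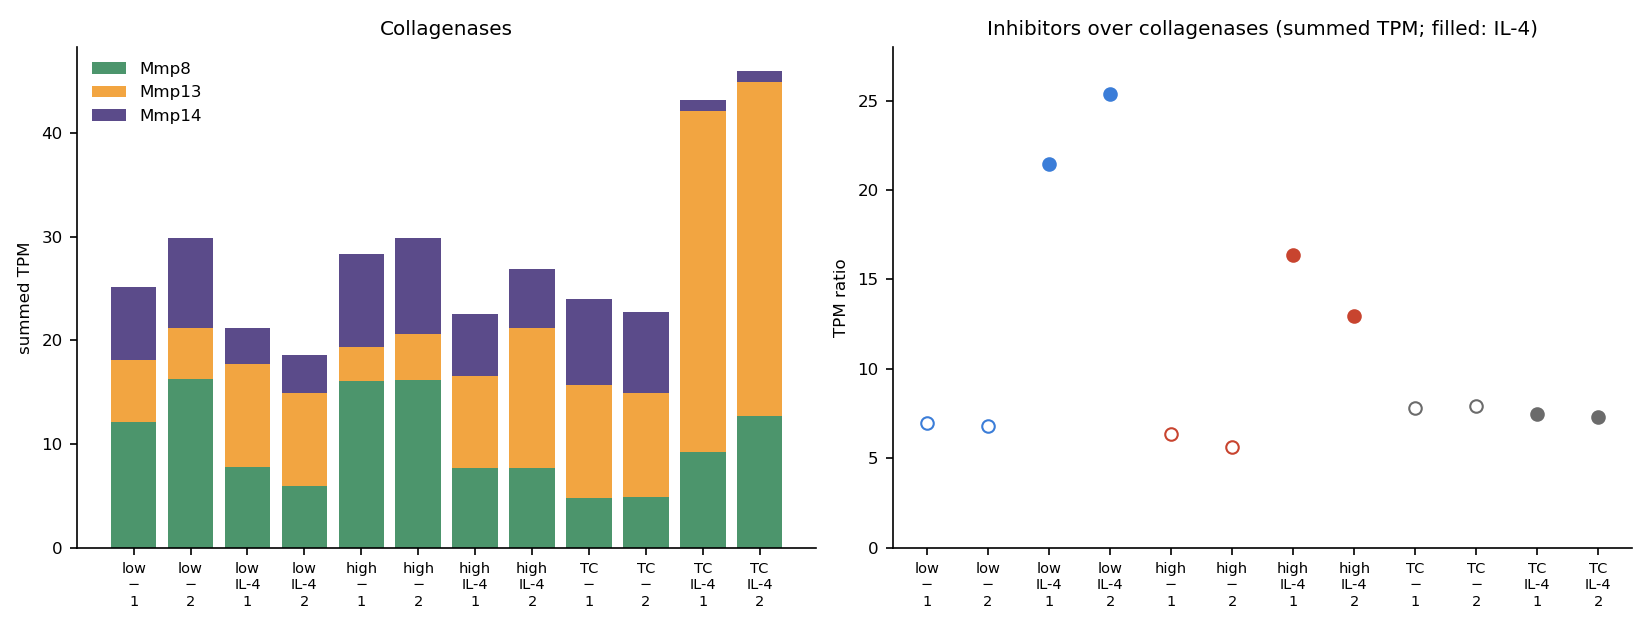
Left, TPM of Mmp8, Mmp13 and Mmp14 stacked for each of the 12 libraries (bars from 0). Right, the ratio of summed inhibitor TPM (Timp1, Timp2, Timp3) to summed collagenase TPM for each library (points; open, untreated; filled, IL-4). The ratio lay between 5.60 and 7.91 in the 8 libraries without IL-4 or on TC plates and between 12.9 and 25.4 in the 4 gel libraries with IL-4.

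Of 17 other Mmp and Timp genes, 2 passed the expression filter in the gel fit, Mmp2 and Mmp11, and none passed it over all 12 libraries. In gels none of the 2 was called for collagen density, and 1 was called lower with IL-4 in low collagen, Mmp2, which encodes the gelatinase activated by MMP14. Mmp2 passed the filter through its untreated low-collagen libraries, at 1.70 and 3.19 TPM against 0.179 to 1.23 TPM in the other gel libraries, so this call is no support for a change. In the chromosome 9 cluster, Mmp1a, Mmp1b, Mmp3, Mmp7 and Mmp20 were listed at 0 in all 12 libraries. Mmp10, the neighbour of Mmp8 on its other side, was at 0.904 to 1.76 TPM on TC plates and did not exceed 0.183 TPM in gels.

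Of 18 genes whose proteins act in proteolysis near the cell surface, 14 were tested and 4 were called between densities with IL-4, 1 higher and 3 lower in high collagen, where 21.1% of all genes were called (14.1% higher, 6.99% lower). Adam17, the sheddase inhibited by TIMP3, was higher by 0.20 ± 0.08 (limma adjusted p = 0.169). Plaur, the urokinase receptor, was lower by -0.50 ± 0.12 (limma adjusted p = 0.0646), at 27.9 and 27.7 TPM in high and 37.7 and 41.6 TPM in low collagen. Furin, a convertase that activates pro-MMP14, was lower by -0.19 ± 0.08 (limma adjusted p = 0.1997, just inside the threshold), and Cd44, a hyaluronan receptor, by -0.19 ± 0.07 (limma adjusted p = 0.151). Without IL-4 and for the interaction none of the 14 was called, beside 8.02% and 0.363% of all genes. The median log2 fold change of the 14 was -0.03 with IL-4, beside 0.06 over all genes. With IL-4 against untreated, 6 rose and 4 fell in low collagen, 5 rose and 2 fell in high collagen, and 5 rose and 7 fell on TC plates, where 53.6%, 34.3% and 38.8% of all genes were called. Against TC plates, 2 were higher and 10 lower in gels without IL-4, and 4 higher and 8 lower with IL-4, beside 76.4% and 77.5% of all genes. The IL-4 response differed between gels and TC plates for 8 of the 14, each with a higher value in gels, where 27.1% of all genes were called (10.8% higher).

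Across the 12 libraries, Mmp12 and Mmp13 correlated at 0.917 and Mmp8 and Mmp27 at 0.784 on log2(TPM + 1), each the r of neighbours on chromosome 9. Mmp19 and Mmp27, on different chromosomes, correlated at 0.722, close to the second of these. Mmp12 and Mmp27, both in the cluster, correlated at -0.751. These values describe 12 libraries that fall into 6 conditions, so that the points share their condition and no p is given. Among the 9670 genes whose mean TPM reached 5, the genes most like Mmp12 were Myo1e (0.989) and Cd36 (0.988), and those most like Mmp13 were Ttyh2 (0.983) and Rassf8 (0.982). The closest to Mmp8 were Slc29a3 (0.947) and Gtf2i (0.945), and to Mmp27 Hist2h3c1 (0.958) and Tsc22d1 (0.952). Mpeg1 (0.992) and Prdx5 (0.982) were closest to Mmp14, Tarm1 (0.991) and Rbp4 (0.988) to Timp2, and Manbal (0.969) and Rpl6 (0.968) to Mmp19. Mmp14 correlated with Mmp13 at -0.879 and with Mmp12 at -0.733.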

How the data were processed

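RNA was purified with RNA-Bee and columns, and libraries were made with the Illumina TruSeq stranded mRNA kit and sequenced as paired-end reads. The deposited TPM values were made by the authors with kallisto 0.46.1 against the Ensembl transcriptome of GRCm38 and summed per gene. TPM fixes the total of each library, so a change in abundant genes shifts all others, and it holds no depth. Of 34456 lines, 129 repeats were collapsed. Groups were taken from the sample titles. Values were tested with limma 3.58.1 in R 4.3.3 on log2(TPM + 1), with a minimum mean TPM of 1, 1 mean per condition, a variance prior that follows the mean, and p-values adjusted by Benjamini-Hochberg over all tested genes and called under 0.2, the threshold of the study's own analysis. Gel comparisons used 8 libraries and comparisons with TC plates all 12. The step was run on data simulated with independent noise at limma's own variances. That run cannot show how the step does on technical replicates. The genes named are the 10 members, listed family and partner genes called for collagen density, and the 2 genes most correlated with each member at a mean TPM of 5 or more. Genes named outside this rule are so marked or stand in their list. The members and lists were chosen with earlier results of these data known. Promoter windows came from RefSeq (GRCm38.p6). The alternatives tried were no filter, a minimum mean TPM of 5, a pseudocount of 0.1, median-ratio rescaling, no trend, a threshold of 0.05, a replicate block, all 12 libraries in the fit, and each library left out.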

Additional observations from a re-analysis of the deposited data

Results flagged for a closer look

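The following 6 members were singled out because the difference between their IL-4 response in gels and that on TC plates passed limma's test of the difference itself. The log2 fold change of the difference was -2.0 for Mmp8 and -1.77 for Mmp27, both of which fell with IL-4 at both collagen densities and rose on TC plates. It was 1.37 for Mmp14, which fell on both substrates and fell less in gels, and 0.32 for Timp2, which rose on both and rose more in gels. It was -0.53 for Mmp13 and -0.26 for Mmp19, and these last differences missed the threshold after rescaling. Between the 2 collagen densities, the difference in IL-4 response was called for none of the 8 tested members (limma adjusted p from 0.434 to 0.979). At an unadjusted p under 0.05 there were 2 of them, and 4 after rescaling or with all 12 libraries in the fit. No share of all genes is given at that cut, so these counts have no background.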

How the results depend on the processing

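Of the member counts, those for collagen density moved with the processing. With IL-4 the 4 calls became 2 without a filter, 2 without the variance trend and 1 at an adjusted p under 0.05, and 0 to 3 when a library was left out. Without IL-4 the 2 calls became 0 at an adjusted p under 0.05, and 0 to 2 when a library was left out. Of single members, 508 of the other-setting values and 628 of those with a library left out kept direction and side of the threshold, while 21 and 41 lost their call, 1 and 6 gained one, and 5 and 29 changed sign. Rescaling turned Mmp19 with IL-4 in high collagen to 0.10, Timp2 in untreated gels against TC plates to 0.15, and the differences in IL-4 response between gels and TC plates of Mmp12 to 0.0904 and Timp1 to 0.0890, the last of which was 0.18 with a pseudocount of 0.1. Log2 fold changes near 0 also changed sign when a library was left out. Between densities with IL-4, Mmp8 ran from -0.0141 to 0.32, Mmp13 from -0.0809 to 0.47 and Mmp27 from -0.31 to 0.0258. Without IL-4, Mmp8 ran from -0.0123 to 0.39, Mmp19 from -0.0295 to 0.0564 and Timp1 from -0.29 to 0.68. With IL-4 in high collagen, Mmp19 ran from -0.0635 to 0.0280 and Timp1 from -0.10 to 0.87, and the interaction of Mmp8 from -0.23 to 0.16. For gels against TC plates, Timp1 ran from -0.53 to 0.0152 without and from -0.64 to 0.11 with IL-4, and Timp2 from -0.0630 to 0.0366 without. In the difference of responses Mmp12 ran from -0.0683 to 0.0459 and Timp1 from -0.38 to 0.36. The cause of these changes was not tested, except that a stricter threshold makes fewer calls.

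Rescaling moved the collagenase sums to 22.6 TPM in low collagen with IL-4, 20.5 on untreated TC plates and 41.0 on TC plates with IL-4. It moved the inhibitor sums to 528 and 387 TPM in low and high collagen with IL-4 and to 161 and 303 TPM on TC plates without and with IL-4. Over all genes, calls at an adjusted p under 0.05 were 561 of 2500 for collagen density with IL-4, 63 of 951 without, 3656 of 6351 and 1890 of 4064 for IL-4 in low and high collagen, 7 of 43 for the interaction, 2710 of 4598 on TC plates and 1303 of 3218 for the difference of responses. Calls for density without IL-4 were 567 with no filter and 548 with no trend, and those of the interaction were 66, 26 and, with all 12 libraries, 95. With a library left out, calls for density with IL-4 fell to between 715 and 1427 when the library was 1 of the 4 gel libraries with IL-4, and those without IL-4 to 190 and 138 without untreated high-collagen replicate 1 and 2 and 249 without untreated low-collagen replicate 2. For IL-4 in low collagen they were 4218 without low-collagen IL-4 replicate 2, and in high collagen 2578 and 2470 without untreated or IL-4 replicate 1. The interaction had 10 to 22 without untreated high-collagen replicate 1, untreated low-collagen replicate 2 or 1 of the 4 gel libraries with IL-4, and the difference of responses 2098 without untreated TC replicate 1.

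Replicate numbers were tried as a replicate block. Over the 15 pairs of conditions, deviations of same-numbered libraries correlated between -0.123 and 0.109, and 1 pair exceeded 0.1. The numbers follow the order of the sample titles, so these values cannot show whether libraries share a mouse or a batch. With the block, member calls were 3 for density with IL-4, 2 without, 8 and 6 for IL-4 in low and high collagen, 0 for the interaction, 7 on TC plates, 5 and 7 for gels against TC plates and 5 for the difference of responses, Mmp19 (density with IL-4, adjusted p = 0.237) and Mmp13 (0.204) being the calls lost. Over all genes the block gave 586 calls for density without IL-4 and 18 for the interaction. With 2 libraries a condition and no depth, small differences of low genes such as Timp1 could not be resolved.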

Other observations

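Mmp28, which encodes epilysin, a secreted family member, stayed below the expression filter and was picked out after its values were seen. It was at 0.902 and 1.08 TPM in untreated and at 0.839 and 0.641 TPM in IL-4-treated high-collagen gels. In the other 8 libraries it did not exceed 0.285 TPM. Without a filter, the log2 fold changes between high and low collagen were 0.82 ± 0.10 (SE) without IL-4 and 0.63 ± 0.10 with IL-4. As Mmp28 was picked from these same values, no p is given and they are no support for a change. Mmp23, chosen in the same way, was at 0.867 and 0.766 TPM in high and 0.308 and 0.135 TPM in low collagen with IL-4 (0.58 ± 0.13, limma adjusted p = 0.116).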
